A study of Mus musculus with 8 samples.

Results

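Out of 55421 genes counted in cultured mouse spermatogonia, 67 had their lowest level by a wide margin when retinoic acid and nutrient restriction were applied together. They were selected on their measured levels. CPM, the reads of a gene scaled to a library total of 1e6, was averaged over the 2 libraries of each condition. A gene was kept if it reached 2 CPM in each of the 3 other conditions and if its level with the combined treatment, after adding 0.5 CPM to every mean, was at most 0.5 times each of the 3 others. Of the 13979 genes that met the first condition, 67 met the second. Every contrast of the combined treatment with another condition was therefore used to choose these genes and is described without a test.

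The cultures were founded from C57BL/6XDBA/2 F1 testes, taken from pups 6 days old, and grew on feeder cells, which are mouse embryonic fibroblasts of outbred CF1 mice stopped from dividing by irradiation. Vehicle cells (Veh) stayed in complete medium, RA cells received 100 nM retinoic acid in that medium, NR cells were placed in 10% complete medium with 90% Earle's balanced salt solution (EBSS), and NRRA cells received 100 nM retinoic acid in the restricted medium. All groups carried the same genotype, and each treatment lasted 2 days. The complete medium of all groups contained GDNF and basic FGF, which the restricted medium diluted along with its nutrients, so loss of nutrients and loss of growth factors cannot be told apart in NR and NRRA.

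Undifferentiated spermatogonia include the stem cells of the testis. GDNF, secreted by Sertoli cells, binds the co-receptor GFRA1 and the receptor tyrosine kinase RET on these cells, and FGF acts through its own receptors. Both signals reach the ERK kinases, which switch on immediate early genes of the EGR family, the transcription factors ETV5, BCL6B and LHX1, and inhibitors such as DUSP6 and SPRY4 that dampen the same pathway. Retinoic acid, through nuclear receptors, drives undifferentiated spermatogonia to become KIT-expressing differentiating cells.

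Library totals lay between 19261333 and 30023585 reads, so that 1 CPM stood for 19.3 to 30.0 reads, and the lowest count of a member in an NRRA library was 10. The 2 libraries of each condition differed by more than counting noise, and p-values measure only the spread between such libraries, which the study describes as independent. In the fit this spread was small, at a common biological coefficient of variation of 3.35%. Whether it covers the variation between separately founded cultures was not tested. RNA of germ cells was present in each library, where the 12 germ cell markers summed to between 1140 and 1700 CPM. The 30 fibroblast markers summed to between 24900 and 51300 CPM, so fibroblast RNA was present in all 8 libraries. In bulk RNA, fewer cells of a type and less RNA of a gene per cell cannot be told apart.

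The members ranged from scarce transcripts to abundant ones. In Veh, 13 members were under 10 CPM and 19 were over 100 CPM. Per kilobase of exon, the highest Veh levels were those of *Mmp3* at 1260 CPM per kb, *Tnc* at 1170 and *Ass1* at 521. All 67 passed the filter on low counts, and in all 67 both NRRA libraries lay below the 6 others, which was so for 2148 (15.4%) of the 13979 genes with at least 2 CPM. The ratio of NRRA to the lowest other condition had a median of 0.424, against 1.15 over the 13979 genes, and 8 members were at or below 0.25. The lowest of the other 3 conditions was RA in 42 members and NR in 25, while Veh was the highest of the 4 conditions in 56.

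**Figure D1:**
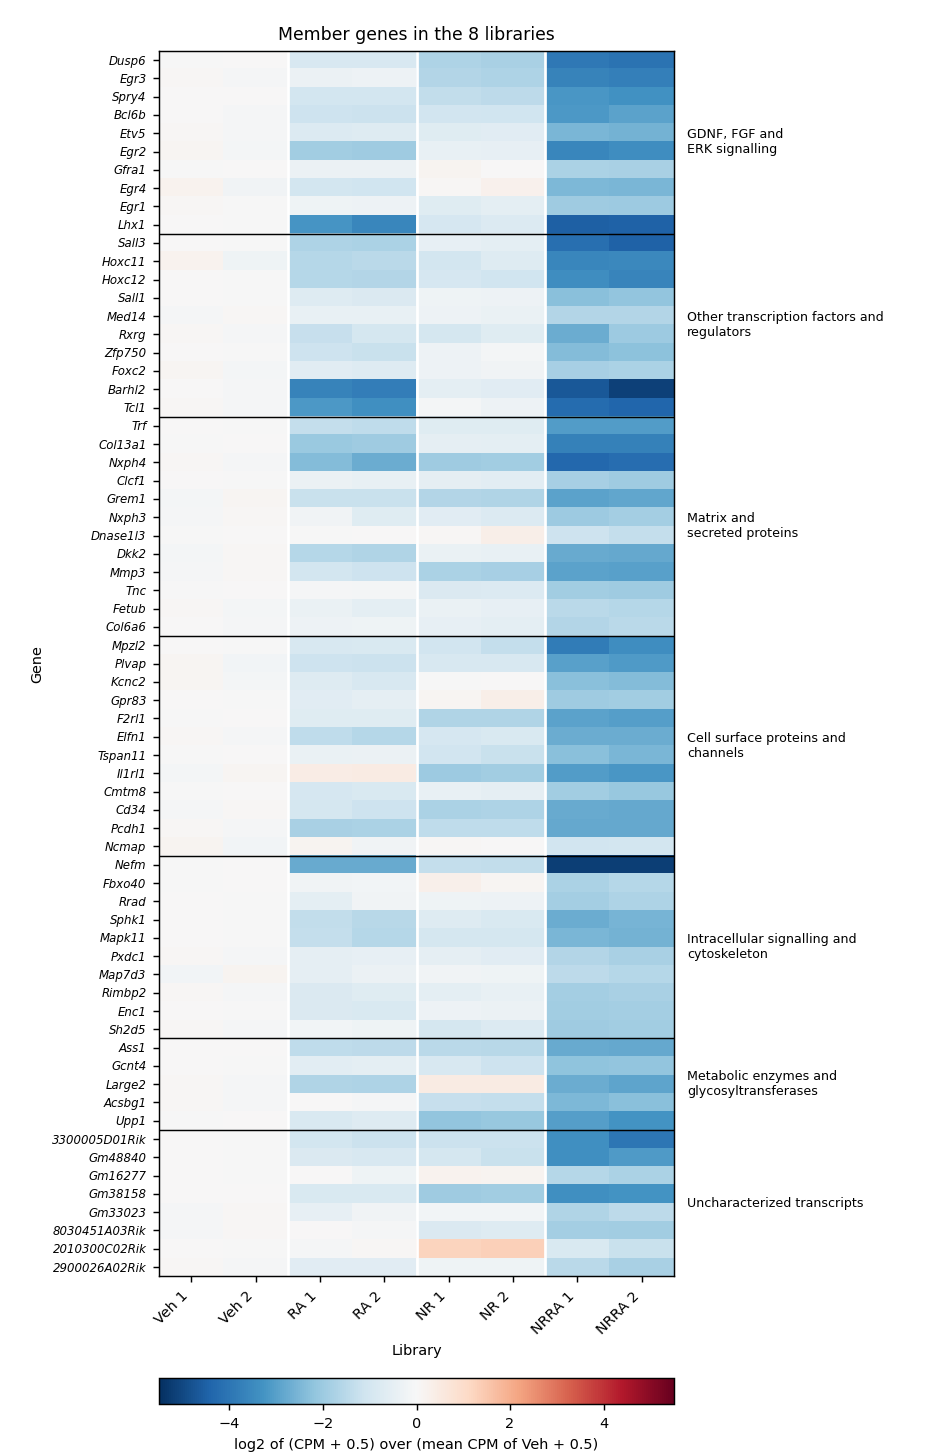
Each row is a member, grouped by role, and each column a library. Colour gives the log2 of the level (CPM + 0.5) over the mean of Veh (+ 0.5), from blue (lower) to red (higher), and the NRRA columns are the bluest in every row because the genes were chosen for this. RA and NR columns are pale blue in most rows, and red marks *2010300C02Rik* under NR.

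The effects of each agent alone were tested across 20477 genes. The levels in Veh, RA and NR had entered the choice of genes, through the minimum of 2 CPM and through the limit on the ratio to NRRA, so these contrasts are not independent of it. The p-values do not allow for that choice, and the counts of members describe them beside the share of all genes. Many members were lower with each agent alone. With RA alone, 29 members (43.3%) fell at least 2-fold at an adjusted p under 0.05, while 2.75% of all tested genes did, and 0 members rose where 4.74% of all genes did. With NR alone, 23 members (34.3%) fell by that measure, against 2.96% of all genes, and 1 member rose, against 5.33%. Without the fold threshold, 59 members fell with RA (all genes 23.4%) and 1 rose (19.8%), while 54 fell with NR (22.2%) and 2 rose (21.7%). The median log2 fold change of the members was −0.96 for RA vs Veh, where that of all tested genes was −0.02, and −0.70 for NR vs Veh, where it was 0.01. RA and NR were compared with the same Veh libraries, so these contrasts are not independent.

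By the 2-fold rule, 12 members (17.9%) fell with either agent alone, a pattern that 0.396% of all tested genes showed. They were *3300005D01Rik*, *Nefm*, *Hoxc12*, *Spry4*, *Bcl6b*, *Nxph4*, *Ass1*, *Grem1*, *Mmp3*, *Mapk11*, *Cd34* and *Pcdh1*. A further 17 passed with RA and not with NR, and 11 with NR and not with RA, which does not by itself show that the agents differed. *2010300C02Rik* was the 1 member that rose with NR. The remaining 26 members (38.8%, against 86.1% of all tested genes) passed in neither contrast, among them *Gfra1*, *Etv5*, *Egr1* and *Tnc*. At an adjusted p under 0.05 with no fold threshold, the members that passed in neither were *Gm16277*, *Fbxo40*, *Dnase1l3* and *Ncmap*. The share of all tested genes that passed in neither without the threshold was not counted. Nor were the shares that passed with RA and not with NR, or with NR and not with RA. Those numbers of members therefore have no background to be read against.

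**Figure D2:**
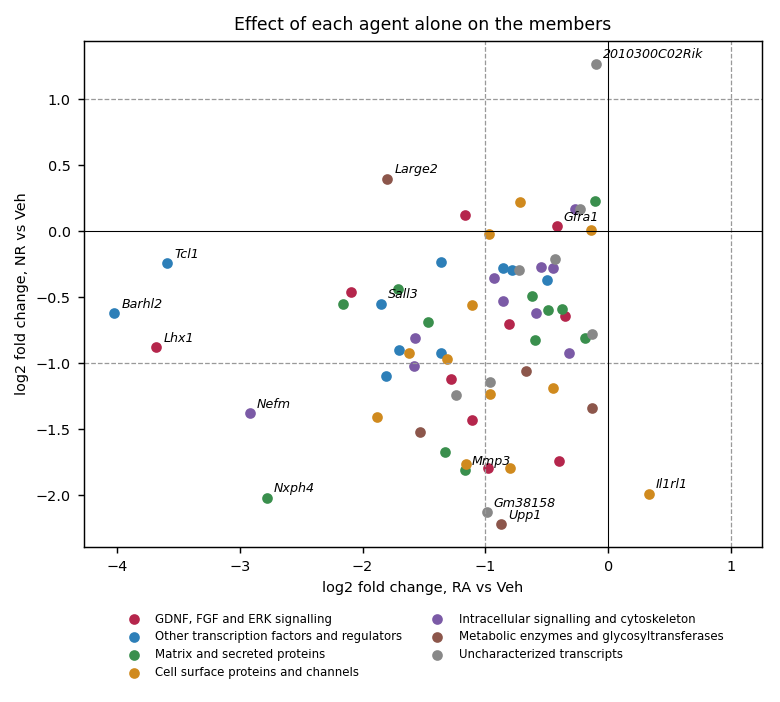
Each point is a member, coloured by role, with its log2 fold change for RA vs Veh on the x axis and NR vs Veh on the y axis. Dashed lines mark 2-fold changes. Most points lie in the lower left quadrant, *Barhl2*, *Lhx1* and *Tcl1* lie far to the left, and *2010300C02Rik* lies above all others.

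NR was also compared with RA directly. In NR relative to RA, 12 members were at least 2-fold higher (6.87% of all genes were) and 5 were at least 2-fold lower (5.62%). Without the fold threshold 34 were higher (24.5%) and 18 were lower (23.8%). The 5 largest positive values belonged to *Barhl2* (log2 fold change 3.39 ± 0.106, SE), *Tcl1* (3.35 ± 0.116), *Lhx1* (2.79 ± 0.105), *Large2* (2.20 ± 0.0612) and *Egr2* (1.63 ± 0.0966), which were all lower with RA. The 5 members lower in NR than in RA were *Il1rl1* (−2.32 ± 0.053), *Upp1* (−1.35 ± 0.0973), *Egr3* (−1.34 ± 0.0999), *Acsbg1* (−1.21 ± 0.0701) and *Gm38158* (−1.13 ± 0.145). The adjusted p of each of these 10 was 2.98e-07 or less.

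The levels with the combined treatment were also set against the sum of both single effects on the log2 scale, again as a description. In 64 of the 67 members NRRA lay below that sum, by a median of 0.91, and in 30 it lay below by at least 1. Over all tested genes, 49.9% lay below and 1.25% lay below by at least 1. The choice of genes fixes most of this, since NRRA had to be at most 0.5 times RA and NR. Any member that either agent alone lowered by less than 2-fold had to lie below the sum. One that an agent raised had to lie below by at least 1. The shares of all genes are therefore no measure for the members. The genes farthest below the sum were *2010300C02Rik* at −2.29, *Sall3* at −2.05 and *Egr3* at −1.78. For *Sall3* the sum gave 17.8 CPM and NRRA measured 3.91 CPM. The 3 members above the sum were *Pcdh1* at 0.34, *Nxph4* at 0.25 and *Ass1* at 0.11. For these the product of both single effects was enough to place them among the 67. The same held for some members below the sum, among them *Cd34* at −0.03, *Grem1* at −0.05 and *Mmp3* at −0.11, which were close to it. For *Cd34*, *Grem1* and *Mmp3* the sum gave 15.4, 49.8 and 315 CPM, and NR, the lowest other condition, measured 32.3, 117 and 662 CPM.

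**Figure D3:**
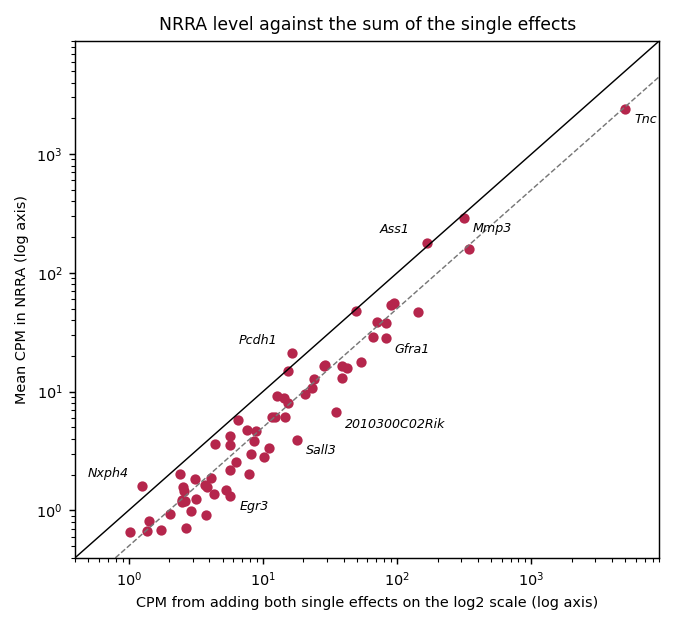
Each point is a member, with the CPM that adding both single effects on the log2 scale would give on the x axis and the mean NRRA CPM on the y axis, both logarithmic. The solid line marks equality and the dashed line a 2-fold lower level. *2010300C02Rik* and *Sall3* lie well under the dashed line, while *Ass1*, *Pcdh1* and *Nxph4* lie on or above the solid line.

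A group of 10 genes belongs to GDNF, FGF and ERK signalling, and was put together after the values were known. Their ratios of NRRA to the lowest other condition ran from 0.209 to 0.478. With RA alone, 5 of the 10 fell at least 2-fold, and with NR alone 4 of the 10 did. All 10 fell with RA when no fold threshold was set, and 8 fell with NR. The median log2 fold changes were −1.04 for RA and −0.79 for NR.

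*Gfra1* encodes the co-receptor that binds GDNF. Its libraries measured 96.4 and 97.1 CPM in Veh, 78.3 and 77.1 with RA, 106 and 98.1 under NR, and 28.7 and 27.6 under NRRA. NR libraries thus overlapped with none of RA but lay slightly above Veh, and only NRRA was far from the rest. RA alone lowered *Gfra1* on the log2 scale by −0.42 ± 0.0534 (SE, adjusted p = 4.71e-07), and the value for NR was 0.04 ± 0.0522 (adjusted p = 0.536). *Ret*, the receptor that works with it, was no member, with means of 223 CPM in Veh, 53.7 with RA, 185 under NR and 32.9 under NRRA. Its ratio of NRRA to the lowest other condition, 0.617, missed the limit.

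*Etv5*, an ETS transcription factor required for stem cell renewal in the testis, measured 180 and 164 CPM in Veh, 103 and 106 with RA, 107 and 110 under NR, and 29.5 and 28.3 under NRRA. Both agents alone lowered it, with log2 fold changes of −0.81 ± 0.0509 for RA (adjusted p = 9.71e-13) and −0.70 ± 0.0506 for NR (1.12e-11), and NRRA was 3.58-fold below the lower of them. *Bcl6b*, a transcriptional repressor induced by GDNF, behaved alike with 141 and 132 CPM in Veh, 61.2 and 59.6 with RA, 65.6 and 63.4 under NR, and 15.1 and 17.6 under NRRA. Its log2 fold changes were −1.28 ± 0.0575 for RA (adjusted p = 1.11e-15) and −1.12 ± 0.0569 for NR (6.68e-15). *Lhx1*, a LIM homeobox gene that GDNF induces in these cells, was lowered mostly by RA. It measured 56.0 and 55.2 CPM in Veh, 5.35 and 4.16 with RA, 29.0 and 32.4 under NR, and 1.96 and 2.07 under NRRA.

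*Dusp6* and *Spry4* encode feedback inhibitors, a phosphatase of ERK and a Sprouty protein. *Dusp6* measured 258 and 266 CPM in Veh, 144 and 140 with RA, 79.9 and 75.6 under NR, and 16.6 and 15.2 under NRRA, a stepwise order with no overlap between conditions. Its log2 fold changes were −0.98 ± 0.0477 for RA (adjusted p = 5.44e-15) and −1.79 ± 0.05 for NR (1.94e-20), so it missed the 2-fold limit narrowly for RA. *Spry4* measured 127 and 127 CPM in Veh, 63.5 and 62.8 with RA, 49.4 and 47.1 under NR, and 13.4 and 12.1 under NRRA. Both were lower in NR than in RA, with adjusted p = 3.78e-13 for *Dusp6* and 4.32e-05 for *Spry4*.

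All 4 EGR genes, zinc finger transcription factors that growth factor signals induce within minutes, were among the 67, and they differed in which agent lowered them. *Egr3* measured 24.4 and 22.3 CPM in Veh, 18.4 and 19.4 with RA, 7.37 and 6.94 under NR, and 1.37 and 1.27 under NRRA. Its fall was larger with NR (log2 fold change −1.74 ± 0.0982, adjusted p = 5.86e-14) than with RA (−0.40 ± 0.0841, adjusted p = 0.000315). *Egr2* showed the opposite order with 36.6 and 31.2 CPM in Veh, 8.67 and 8.46 with RA, 25.3 and 25 under NR, and 2.40 and 2.70 under NRRA. *Egr4*, with 115 and 89.3 CPM in Veh, 49.7 and 47.9 with RA, 107 and 120 under NR, and 17.9 and 17.5 under NRRA, fell with RA (−1.17 ± 0.0814, adjusted p = 7.5e-12), while the value for NR was 0.12 ± 0.0753 (adjusted p = 0.224). *Egr1*, the most general of the family, measured 155 and 146 CPM in Veh, 129 and 125 with RA, 94.7 and 102 under NR, and 38.6 and 37.6 under NRRA, and fell with NR by −0.64 ± 0.0518 on the log2 scale.

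**Figure D4:**
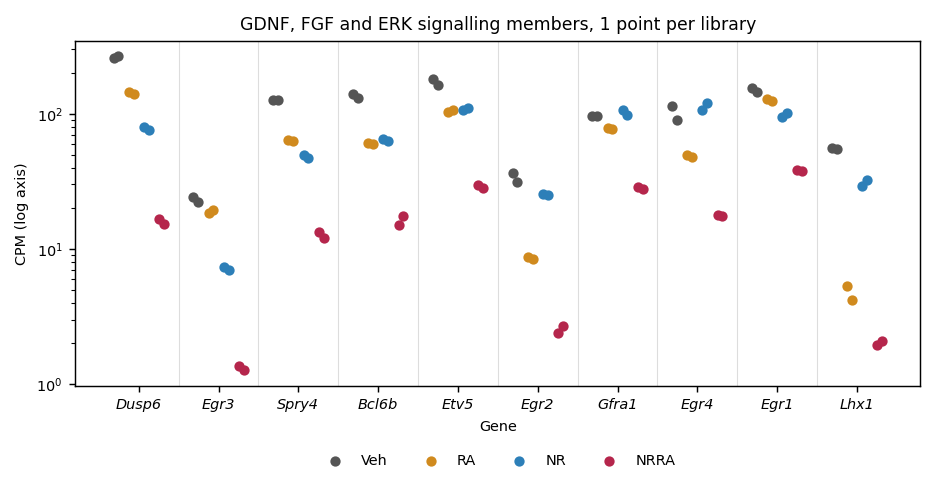
CPM on a logarithmic axis for the 10 genes of GDNF, FGF and ERK signalling, with 1 point for each library and a colour for each condition. NRRA points lie below all others for each gene. RA points lie farthest below NR points for *Lhx1*, *Egr2* and *Egr4*. The order is turned most clearly for *Dusp6* and *Egr3*, and the gaps between RA and NR are smaller for the other genes.

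A wider list of 34 genes of the GDNF and FGF response held all 10, and 33 of its genes had at least 2 CPM, so 30.3% of those were members, against 0.479% of all genes with at least 2 CPM. The list and the 10 are not independent of each other, and the list was chosen with earlier results of these data known. Over the 34 genes, 8 fell and 1 rose at least 2-fold with RA, and 14 fell and 0 rose with NR, with medians of −0.38 and −0.67 on the log2 scale. Among the genes that were no members, *Dusp4* fell with NR from 113 to 29.8 CPM and measured 18.3 in NRRA, *Etv4* fell from 75.6 to 32.0 and measured 17.5, and *Fosl1* fell from 80.4 to 17.2 and measured 18.3. The cell cycle gene *Ccnd1* fell with NR from 747 to 222 CPM and was not lower in NRRA at 297. Others went the other way, such as *Spry1*, with 21.4 CPM in Veh and 32.1 in NRRA, and *Fgfr3*, with 5.42 and 17.2. The summed CPM of the 24 genes of the list outside the 67 was 0.936 times Veh with RA, 0.624 under NR and 0.536 under NRRA.

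A further 10 members encode transcription factors or regulators, and their median log2 fold change was −1.53 with RA and −0.46 with NR. *Sall3*, a zinc finger protein of the spalt family, had the lowest ratio of all members (0.169). It measured 88.3 and 83.5 CPM in Veh, 26.0 and 25.1 with RA, 62.0 and 58.4 under NR, and 4.36 and 3.46 under NRRA, and its log2 fold change was −1.85 ± 0.0661 for RA (adjusted p = 1.04e-17) and −0.55 ± 0.0593 for NR (2.15e-08). Its relative *Sall1* measured 79.3 and 77.0 CPM in Veh, 47.5 and 45 with RA, 67.1 and 64.3 under NR, and 15.7 and 16.8 under NRRA. In both genes RA had the larger effect alone.

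*Barhl2*, a homeobox gene best known from the nervous system, had the largest fall of any member with RA. It measured 62.1 and 58.4 CPM in Veh, 4.26 and 3.8 with RA, 41.8 and 38.4 under NR, and 1.88 and 1.23 under NRRA, and its log2 fold change was −4.02 ± 0.101 for RA (adjusted p = 7.14e-21). *Tcl1*, a coactivator of the AKT kinase that is active in stem cells, followed a similar course with 33.5 and 31.3 CPM in Veh, 3.17 and 2.69 with RA, 29.7 and 26.7 under NR, and 1.26 and 1.10 under NRRA. For both genes most of the distance between Veh and NRRA was covered by RA alone. *Hoxc11* and *Hoxc12*, neighbouring homeobox genes on chromosome 15 that lie 15817 bases apart on the same strand, measured 17.2 and 13.0 CPM in Veh on average and 0.98 and 0.687 CPM in NRRA. *Hoxc12* fell at least 2-fold with each agent (−1.81 and −1.10 on the log2 scale), and *Hoxc11* with RA (−1.70), with a value of −0.90 for NR.

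The other 4 regulators had ratios of NRRA to the lowest other condition between 0.433 and 0.453. *Foxc2*, a forkhead factor that marks a subset of undifferentiated spermatogonia, averaged 22.4 CPM in Veh, 14.0 with RA, 18.8 under NR and 6.08 under NRRA. *Zfp750*, known from epidermal differentiation, fell with RA (−1.36 ± 0.127, adjusted p = 2.25e-09) from 11.4 to 4.79 CPM and measured 1.89 in NRRA. *Rxrg*, a retinoid X receptor, was scarce with 5.22 CPM in Veh and 0.651 in NRRA, and fell with RA by −1.36 ± 0.214 (adjusted p = 9.54e-06). *Med14*, a subunit of the Mediator complex, was the broadly used gene of the group at 119 CPM in Veh, 90.0 with RA, 94.1 under NR and 38.7 under NRRA.

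Matrix and secreted proteins gave 12 members, and 2 of them were the most abundant of the 67. *Tnc* encodes tenascin C, a matrix glycoprotein of growing and injured tissue. It measured 8930 and 9280 CPM in Veh, 8700 and 8430 with RA, 5220 and 5380 under NR, and 2450 and 2350 under NRRA, with log2 fold changes of −0.19 ± 0.0337 for RA (adjusted p = 5.32e-05) and −0.81 ± 0.034 for NR (9.77e-17). *Mmp3*, the matrix protease stromelysin-1, measured 2190 and 2360 CPM in Veh, 1120 and 1050 with RA, 675 and 650 under NR, and 299 and 284 under NRRA. It fell by −1.17 ± 0.0433 with RA (adjusted p = 1.96e-17) and by −1.81 ± 0.0442 with NR (9.64e-22), and NRRA lay 0.11 below the sum of both.

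*Grem1*, a secreted antagonist of bone morphogenetic proteins, measured 337 and 392 CPM in Veh, 154 and 157 with RA, 120 and 114 under NR, and 46.4 and 49.5 under NRRA. *Dkk2*, a secreted Wnt modulator, and *Trf*, transferrin, were lowered more by RA, from 118 to 38.6 CPM and from 84.0 to 32.7 CPM, and measured 16.6 and 9.58 CPM in NRRA. For *Trf*, 63.5% of the exon bases overlap a gene model on the same strand, so its reads are uncertain. *Nxph4*, a neurexophilin, fell with RA by −2.78 ± 0.104 (adjusted p = 2.6e-17) and with NR by −2.02 ± 0.095 (1.25e-15), from 39.2 to 6.25 and 9.84 CPM, and measured 1.59 in NRRA.

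The rest of this group was less abundant. *Col13a1*, a membrane-bound collagen, fell with RA from 34.7 to 8.28 CPM and measured 24.1 CPM in NR and 2.19 in NRRA. *Clcf1*, a cytokine of the interleukin 6 family, averaged 23.7 CPM in Veh and 6.13 in NRRA. *Col6a6*, *Nxph3*, *Fetub* (a protease inhibitor) and *Dnase1l3* (a secreted nuclease) were between 2.29 and 6.14 CPM in Veh and between 0.704 and 1.82 CPM in NRRA.

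Cell surface proteins and channels gave 12 members. *Il1rl1*, the receptor for interleukin 33, was the 1 member that rose with RA. It measured 389 and 443 CPM in Veh, 552 and 566 with RA, 105 and 109 under NR, and 49.0 and 45.4 under NRRA. RA raised it by 0.33 ± 0.0489 on the log2 scale (adjusted p = 5.08e-06) and NR lowered it by −1.99 ± 0.0531 (6.72e-21), so that RA went with a higher level in complete medium and with a lower level in the restricted medium. *Mpzl2*, an adhesion protein of the immunoglobulin family, measured 47.1 and 46.3 CPM in Veh, 25.3 and 26.0 with RA, 22.1 and 18.8 under NR, and 2.81 and 3.93 under NRRA, and had the third lowest ratio of the 67 (0.185).

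*Cd34* and *Plvap* are best known from blood vessels, and *Plvap* also from a subset of undifferentiated spermatogonia. *Cd34* measured 103 and 111 CPM in Veh, 54.2 and 48.7 with RA, 31.7 and 32.8 under NR, and 15.3 and 14.7 under NRRA. *Plvap* measured 18.6 and 15.3 CPM in Veh, 7.42 and 7.28 with RA, 8.88 and 8.91 under NR, and 1.74 and 1.53 under NRRA. *Pcdh1*, a protocadherin, fell with both agents, from 150 CPM in Veh to 43.8 in RA and 57.5 in NR, and measured 21.1 in NRRA. *F2rl1*, a protease-activated receptor, was lowered at least 2-fold by NR alone (−1.79 ± 0.116, adjusted p = 1.1e-12).

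*Elfn1*, a synaptic adhesion protein, and *Cmtm8* fell with RA, by −1.62 and −1.11 on the log2 scale. *Tspan11*, a tetraspanin, fell with NR by −1.19. *Kcnc2*, a voltage-gated potassium channel, and *Gpr83*, a G protein coupled receptor, were lower with RA (adjusted p = 1.39e-06 and 0.000954) by less than 2-fold, and their NR values were −0.02 ± 0.119 and 0.22 ± 0.15. *Ncmap*, a myelin-associated membrane protein, differed in neither contrast at an adjusted p under 0.05 (0.592 and 0.975), with 3.71 CPM in Veh, 3.69 with RA, 3.83 under NR and 1.56 under NRRA.

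Of the 10 members with intracellular signalling or cytoskeletal roles, *Nefm*, the medium neurofilament protein, had the lowest level relative to Veh of all 67. It measured 156 and 159 CPM in Veh, 22.4 and 22.3 with RA, 62.4 and 61.0 under NR, and 3.91 and 3.8 under NRRA, with log2 fold changes of −2.92 ± 0.0578 for RA (adjusted p = 4.36e-23) and −1.38 ± 0.0507 for NR (6.26e-18). The gene shares 19.2% of its exon bases with *Nefl* on the opposite strand. *Sphk1*, which makes sphingosine 1-phosphate, fell with RA from 60.1 to 21.9 CPM and measured 9.11 in NRRA. *Mapk11*, a p38 kinase, fell with both agents, from 36.4 CPM in Veh to 13.3 in RA and 18.4 in NR, and measured 5.73 in NRRA.

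The other 7 of these genes passed the 2-fold limit with neither agent. *Enc1*, an actin-binding protein, was the most abundant with 209 CPM in Veh, 118 with RA, 168 under NR and 55.8 under NRRA. *Rrad*, a small GTPase, averaged 22.5 CPM in Veh and 6.13 in NRRA, and *Fbxo40*, an F-box protein known from muscle, 9.97 and 2.81 CPM. The NR values of *Fbxo40* (12.2 and 10.9 CPM) were above those of Veh (9.76 and 10.2), and neither agent alone changed it at an adjusted p under 0.05 (0.0545 for RA and 0.212 for NR). *Pxdc1*, *Rimbp2*, *Map7d3* and *Sh2d5* completed the group, with 4.31 to 30.0 CPM in Veh and 1.19 to 8.87 CPM in NRRA.

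Metabolic enzymes gave 5 members. *Ass1*, argininosuccinate synthase, which makes the precursor of arginine, measured 1260 and 1260 CPM in Veh, 475 and 463 with RA, 457 and 439 under NR, and 182 and 178 under NRRA. RA and NR lowered it by −1.53 ± 0.0384 and −1.52 ± 0.0384 on the log2 scale (adjusted p = 7.14e-21 and 2.22e-21), and NR differed from RA by 0.00 ± 0.0382 (adjusted p = 0.955). *Upp1*, uridine phosphorylase, had the largest fall of any member with NR (−2.22 ± 0.0915, adjusted p = 7.18e-17). It measured 35.6 and 35.9 CPM in Veh, 20.1 and 21.7 with RA, 7.51 and 8.13 under NR, and 3.99 and 3.23 under NRRA.

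*Large2*, a glycosyltransferase that modifies dystroglycan, responded to the agents in opposite directions. It measured 97.2 and 88.9 CPM in Veh, 28.9 and 28.5 with RA, 126 and 126 under NR, and 13.6 and 12.2 under NRRA, which gave −1.80 ± 0.0629 for RA (adjusted p = 6.44e-18) and 0.40 ± 0.0542 for NR (8.79e-07). *Acsbg1*, an acyl-CoA synthetase, was lowered by NR (−1.34 ± 0.0707, adjusted p = 1.52e-14) and had a value of −0.13 ± 0.0637 for RA (adjusted p = 0.107). *Gcnt4*, an enzyme of O-glycan branching, fell with NR by −1.06.

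A group of 8 members carry only clone or model names, and 6 of the 67 are not annotated as protein coding. Of these, 4 overlap other members on the opposite strand, and whether reads were counted by strand is not given in the sources used here, so their reads may be shared. *Gm16277* shares 62.8% of its exon bases with *Gfra1* and had means of 7.41 CPM in Veh, 6.85 with RA, 8.52 under NR and 2.04 under NRRA, the order of *Gfra1*. *Gm48840* shares 54.5% with *Mpzl2* and had 32.2, 17.8, 15.0 and 2.98 CPM in the same order of conditions. For *8030451A03Rik*, on the strand opposite *Tnc*, the shared part was 4.31%, and for *Gm33023*, opposite *Rrad*, 8.39%. *8030451A03Rik* measured 562 and 619 CPM in Veh, 594 and 562 with RA, 345 and 361 under NR, and 160 and 158 under NRRA, the course of *Tnc*.

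*3300005D01Rik*, on chromosome 17 (GRCm38, 5798657 to 5803240), had the second lowest ratio of the 67 (0.181). It measured 23.0 and 22.4 CPM in Veh, 11 and 9.79 with RA, 9.87 and 9.76 under NR, and 1.77 and 0.966 under NRRA. *Gm38158*, annotated as a processed pseudogene with 339 exon bases, lies within *Sdccag8*, and whether its reads arose there was not tested. *Gm38158* fell with NR from 12.7 to 2.96 CPM and measured 0.821 in NRRA, while *Sdccag8* measured 14.2 CPM in Veh and 12.6 in NRRA. *2010300C02Rik* measured 14.5 and 13.9 CPM in Veh, 13.4 and 14.8 with RA, 34.1 and 35.5 under NR, and 7.68 and 5.76 under NRRA. NR raised it by 1.27 ± 0.0911 (adjusted p = 9.29e-12), and the RA value was −0.10 ± 0.104 (adjusted p = 0.492). *2900026A02Rik* was the member nearest the limit, with a ratio of 0.499 and 167, 108, 140 and 53.5 CPM in Veh, RA, NR and NRRA.

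Next inside the limit were *2010300C02Rik* (0.493) and *Upp1* (0.494). The genes just outside were *Glis3* (0.501), *Mycn* (0.502) and *Sox9* (0.507). *Glis3*, a regulator of undifferentiated spermatogonia, measured 175 CPM in Veh, 84.5 with RA, 185 under NR and 42.1 under NRRA, and *Mycn* measured 54.5, 17.5, 53.5 and 8.56 CPM.

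As to the cells from which these transcripts came, markers of undifferentiated spermatogonia were the one cell type list with more than 2 members. Of its 40 genes in the table, 31 had at least 2 CPM and 13 of these (41.9%) were members, against 0.479% of all genes with at least 2 CPM. The 13 were *Nefm*, *Dusp6*, *Egr3*, *Plvap*, *Bcl6b*, *Etv5*, *Egr2*, *Gfra1*, *Egr4*, *Foxc2*, *Lhx1*, *Tcl1* and *Upp1*. Several of these markers are themselves GDNF targets, so this list shares genes with the signalling list above. The list was also chosen with earlier results of these data known, so its share of members is not independent support for a cell of origin. Over the 40 genes, 20 fell and 0 rose with RA, while 8 fell and 2 rose with NR. The summed CPM of the list was 0.597 times Veh with RA, 0.794 under NR and 0.386 under NRRA, and 0.525 under NRRA without the members.

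Markers of this stage that were no members did not all follow the same course. *Zbtb16* measured 157 CPM in Veh, 32.6 with RA, 239 under NR and 36.7 under NRRA, and *Nanos3* measured 15.4, 1.85, 20.2 and 1.51 CPM, so that RA alone gave a level like that of NRRA. *Sall4* measured 124, 158, 125 and 207 CPM, and *Foxo1* 117, 100, 150 and 111 CPM. Lists for other germ cell stages held 0 members. Summed markers of differentiating spermatogonia were 1.38 times Veh in NRRA, those of germ cells of any stage 1.43 times, and those of meiotic prophase 2.24 times. The part of these shifts in the levels of the 67 genes was not tested.

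The fibroblast list held 0 members among 30 genes, 28 of them with at least 2 CPM. Its summed CPM was 0.855 times Veh with RA, 1.69 under NR and 1.38 under NRRA, but the list went both ways. Mean CPM was above Veh in 24 of the 30 markers under NR and below it in 6, and under NRRA it was above in 17 and below in 12, with 1 equal after rounding. *Col1a1* measured 3580 CPM in Veh, 7700 under NR and 7870 under NRRA, and *Col3a1* 1340, 3970 and 3840 CPM. Among the markers below Veh under NR, *Vim* measured 1710, 946 and 717 CPM in the same order, *Timp1* 644, 468 and 246, and *Thy1* 270, 223 and 169. *Twist2* measured 127, 46.6 and 112 CPM, and *S100a4* 3.01, 1.71 and 0.64. *Tnc*, *Mmp3*, *Grem1*, *Il1rl1* and *Cd34* are genes that fibroblasts are known to express. All of them were lower in NR than in Veh, as were 6 of the 30 markers of the list, while the other 24 were higher. Besides *Trf* on the Sertoli list and *Nefm* and *Barhl2* on the neural list, the lists for Leydig, leukocyte, endothelial, epithelial and muscle cells held 0 members. The summed CPM of the 8 endothelial markers was nonetheless 0.474 times Veh with RA, 0.803 under NR and 0.431 under NRRA. Most of that sum was *Flt1*, with 127 CPM in Veh and 51.4 in NRRA. In all, 52 of the 67 were on no cell type list, and the libraries do not assign a transcript to a cell.

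Lists of pathways other than GDNF and FGF signalling held few members. Immediate early genes held 4 of 26 genes with at least 2 CPM (15.4%), all of them EGR genes, and developmental transcription factors held 3 of 46. Matrix proteins and proteases held *Tnc* and *Mmp3* among 34, and their summed CPM without these 2 was 1.70 times Veh in NRRA. The Wnt, Notch and BMP list held *Grem1* among 37, and the retinoid list held *Rxrg* among 15. The lists for glycolysis and hypoxia, sterol and fatty acid synthesis, the amino acid response, the cell cycle, cytokines and chemokines, and ribosome biogenesis held 0 members.

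**Figure D5:**
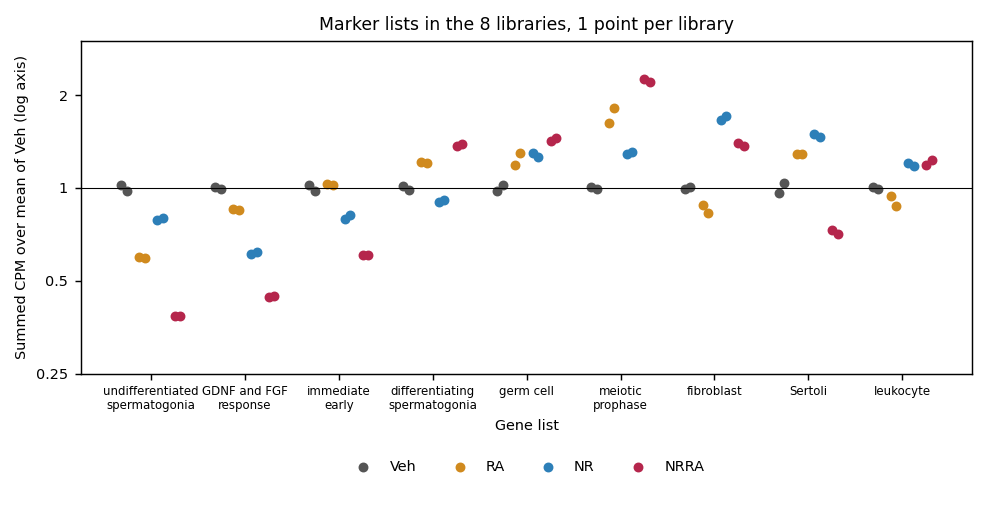
Summed CPM of 9 gene lists in each library relative to the mean of Veh, on a logarithmic axis, with a colour for each condition. Of these 9 lists, those for undifferentiated spermatogonia and for the GDNF and FGF response are lowest in NRRA (0.386 and 0.446 times Veh). The NRRA sums for germ cells, meiotic prophase and fibroblasts are above Veh. The endothelial list, at 0.431 times Veh in NRRA, is not shown.

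The members were spread over 19 chromosomes, with 2 on the X, and 61 (91.0%) were protein coding, against 89.3% of the genes with at least 2 CPM. Their median exon length was 3806 bases, against 4295, and their median GC content 52.5%, against 49.9%. RefSeq promoters, from 250 bases before to 50 after a gene start on GRCm38.p6, were at hand for 39 of the 67. The letters TGANTCA were found on either strand in 6 of the 39 (15.4%), in 8.97% of 27025 genes and in 6.08% of the genes with at least 2 CPM. They take in TGAGTCA and TGACTCA, the site of AP-1, the FOS and JUN dimer that ERK signalling induces. They are wider than that site, and the match in *Gcnt4* was TGAATCA. The ETS core CCGGAAG was found in 3 (7.69%), against 9.93% and 19.9%, and the nuclear receptor half-site AGGTCA in 9 (23.1%), against 18.1% and 14.6%. They belong to a scan of 12 fixed motifs, in which others differed from the background too. The TATA box was found in 20.5%, against 15.7% and 8.52%, and the cyclic AMP response element in 0, against 2.03% and 3.53%. These shares describe letters in a window and no binding was measured.

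The stretches below, each of 120 bases, are shown because they hold such letters in 4 members whose response differed, namely *Mmp3* and *3300005D01Rik*, lowered by both agents, *Upp1*, lowered mostly by NR, and *Egr2*, lowered mostly by RA. Capitals mark the AP-1 letters in the first 3 (and, farther right in *Mmp3*, the TATA box) and the CArG box, the site of serum response factor, in *Egr2*, the 1 member of the 39 with that motif (1.81% of all genes). All lie on the plus strand, and position −1 is the last base before the RefSeq start.
Mmp3 promoter, chr9:7445702-7445821, AP-1 letters from −46: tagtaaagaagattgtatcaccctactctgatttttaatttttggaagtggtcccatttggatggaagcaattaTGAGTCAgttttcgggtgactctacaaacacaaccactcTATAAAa
Upp1 promoter, chr11:9117888-9118007, AP-1 letters from −45: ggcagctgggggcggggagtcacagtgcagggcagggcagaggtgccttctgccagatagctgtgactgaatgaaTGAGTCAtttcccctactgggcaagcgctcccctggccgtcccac
3300005D01Rik promoter, chr17:5798407-5798526, AP-1 letters from −203: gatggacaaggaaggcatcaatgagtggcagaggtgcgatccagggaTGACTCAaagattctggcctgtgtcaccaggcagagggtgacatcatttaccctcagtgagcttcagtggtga
Egr2 promoter, chr10:67537749-67537868, CArG box from −72: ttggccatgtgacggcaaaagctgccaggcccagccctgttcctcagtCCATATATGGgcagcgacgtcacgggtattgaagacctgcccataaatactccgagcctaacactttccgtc
The *Mmp3*, *Upp1* and *3300005D01Rik* stretches lie between annotated genes. That of *Egr2* lies before an internal start, within an intron of a longer *Egr2* transcript in GENCODE M21.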

How the data were processed

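RNA-seq libraries of 4 conditions, 2 each, were grouped by their GEO labels. The authors demultiplexed reads with bcl2fastq, aligned them with STAR 2.6.1c to mm10 and counted them with featureCounts 1.6.4, as their processing notes list, and deposited whole-number counts per gene, not normalized. Whether counting used the strand is not given in the sources used here. The columns without a sample numbered 0.

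CPM was computed from column totals. Contrasts of RA, NR and Veh were tested with edgeR 4.0.16 (R 4.3.3), using filterByExpr, TMM scaling, 1 coefficient per condition and the quasi-likelihood test on all 8 libraries, with Benjamini-Hochberg adjustment over 20477 genes. Calls needed at least a 2-fold change with an adjusted p under 0.05. The model was tested on simulated data. Coordinates came from GENCODE M21 and promoters from RefSeq. Error values are SE of log2 fold changes.

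The members, gene lists and motifs were chosen with earlier results of these data known, and roles and the CArG box after values were seen. Genes were named by rule: the 20 lowest ratios, the 10 most abundant members, members on any of 24 lists, the 3 genes on each side of the limit and the 5 largest calls in each direction of each contrast. All other members were named once by role.

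Alternatives were DESeq2 1.42.0, RLE scaling, no filter on low counts, a replicate block, 2 conditions at a time, each library left out, and other limits for membership.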

Additional observations from a re-analysis of the deposited data

Results flagged for a closer look

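In 8 members, all libraries of 1 agent moved one way in the absence of the other agent and the opposite way in its presence. One of these directions is fixed by the choice of genes, and the difference was not tested. How many of all genes show such a pattern was not counted, and with 2 libraries per condition such separation can arise without a change. In the fit, NR alone had no clear effect on *Gfra1* (adjusted p = 0.536), *Gm16277* (0.307), *Fbxo40* (0.212), *Gpr83* (0.243) or *Dnase1l3* (0.415). For NR, the change in log2 effect between presence and absence of RA was −2.29 in *2010300C02Rik* (1.27 without RA, −1.02 with it), −1.72 in *Gm16277* (0.19 and −1.53), −1.70 in *Fbxo40* (0.20 and −1.5), −1.59 in *Gpr83* (0.22 and −1.37), −1.56 in *Large2* (0.43 and −1.12), −1.53 in *Gfra1* (0.08 and −1.45) and −1.40 in *Dnase1l3* (0.20 and −1.20). For RA, it was −1.60 in *Il1rl1* (0.43 in complete medium, −1.17 in restricted medium). These effects are log2 ratios of mean CPM + 0.5 without TMM scaling. They therefore differ from the fitted values given earlier, such as 0.33 for RA alone in *Il1rl1*. *Gm16277* overlaps *Gfra1*, so their values may not be separate.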

How the results depend on the processing

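The number of members depends on the limit of the rule. It was 203 with a looser limit on the ratio (0.667) and 16 with a stricter one (0.333), 76 with totals scaled by TMM, and 50 to 83 with other minimum levels or added constants. Leaving out 1 library gave between 63 and 78 members (78 without NRRA replicate 1), and 54 members were kept each time. Counts without the fold threshold differed from those with it by over 1.5 times: 59 members fell and 1 rose with RA, 54 fell and 2 rose with NR, and 34 were higher and 18 lower in NR than in RA.

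With the 2-fold threshold, every count of called members stayed within 1.5 times of the reported one under DESeq2, RLE scaling, no filter, 2 conditions at a time and each library left out. Of 70 such calls, 5 were lost in some setting, each when 1 library was left out: *Egr4* for RA (0.95 in size without Veh replicate 1), *Gm48840* (0.99), *Hoxc12* (0.99) and *Gcnt4* (0.91) for NR without NR replicate 2, and *Mapk11* for NR (0.98 to 0.99 without Veh or NR replicate 1). Of the values not called, 11 passed in some setting, all near 1 on the log2 scale.

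Replicate numbers did not pair the samples (correlations from −0.0334 to 0.0225), and with a replicate block 29 members fell with RA and 23 with NR, as without it. Members under about 5 CPM rest on few reads, and 2 libraries per condition bound all errors.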
